A study of Homo sapiens with 6 samples.

Results

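Interferon-stimulated genes are transcribed when a cell senses viral nucleic acid or receives interferon from its neighbours. The set described here is a list of 36 human genes of this response, chosen by name with earlier results of these data known. It holds sensors and transcription factors, the IFIT and OAS families, other antiviral effectors, ISG15 with its enzymes, further interferon-induced genes and chemokines. Of these, 31 were among the 17211 genes listed in the deposited table. RSAD2, CMPK2, XAF1, CXCL10 and CXCL11 were not analysed here.

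They were measured by poly(A) RNA sequencing of CAOV2, a human ovarian cancer cell line, which the sample titles also call primary. Both groups received 100 pmol of siRNA with a lipid reagent and were collected on day 3. The siYAP group (3 libraries) received an siRNA reagent against YAP, the transcriptional co-activator encoded by YAP1 that is restrained by the Hippo kinases. The siNT group (3 libraries) received a non-targeting siRNA of another product line, so the reagent and the loss of YAP cannot be told apart, and untransfected cells were not analysed here. The labels call the libraries biological replicates without naming passages or days, and each p-value therefore reflects only how much these particular libraries vary. In bulk RNA, fewer cells expressing a gene and less RNA per cell cannot be told apart.

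Type I interferons bind the receptor made of IFNAR1 and IFNAR2, whose kinases JAK1 and TYK2 activate a STAT heterodimer that contains STAT2. With IRF9 it binds the interferon-stimulated response element (ISRE) in the promoters of these genes. The products sense foreign RNA, degrade it or block its translation, restrict virus entry and budding, or attach the ubiquitin-like protein ISG15 to other proteins. Many tumour cell lines also transcribe such genes at a low level without added interferon.

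Levels are normalized counts, that is, each gene's reads scaled by a size factor for the library, and 1 read was worth 0.906 to 1.21 of them. The recovered reads came to between 25478595 and 31790340 per library. YAP1 itself had 6221, 5801 and 5955 normalized counts in siNT replicates 1, 2 and 3 and 278, 327 and 294 in siYAP, or 5.00% of siNT, so its transcript matched every label. WWTR1, the paralog of YAP1, also fell, from a mean of 4278 in siNT to 2414 in siYAP, or 56.4% of siNT. The cause of the fall of WWTR1 was not tested. Differences are siYAP minus siNT on the log2(normalized count + 1) scale, tested with limma over 17200 genes, and a gene was called at a Benjamini-Hochberg adjusted p under 0.05. When the libraries were instead scaled to equal totals, 62.1% of the called genes were higher, against 50.4% with the deposited scaling.

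Of the 31 measured genes, 12 were called higher in siYAP (38.7%, against 28.6% of all genes tested), 1 was called lower (3.23%, against 28.1%) and 18 were not called. With equal totals 19 were called higher and 0 lower, beside 6050 higher and 3700 lower of all genes tested. The higher genes were the RNA sensors RIGI and IFIH1, IFIT2, IFIT5, OAS2, OAS3, MX1, MX2, SAMD9, IFI6, IFI35 and PARP9, and the lower one was IRF1. Their median log2 difference was 0.31, beside 0.0036 over all genes tested, with a range from -0.29 to 2.38, and it was positive for 25 and negative for 6. The median was 0.20 without siNT replicate 3, the lowest of the values with 1 library left out, and 0.24 without siYAP replicate 2. All 3 siYAP libraries lay above all 3 siNT libraries for 12 genes (38.7%, against 30.9% of all listed genes) and below them for 2 (6.45%, against 30.6%), and 17 overlapped. The genes with 2-fold or larger called differences were IFIH1, OAS2, MX1 and MX2, all with siNT means under 10 normalized counts. Among the 20 genes with a mean of at least 50 in either group, 8 were higher, 1 was lower, the median was 0.23 and the largest difference was 0.78. OAS2, MX2, IFI27 and IFI44 had means under 10 in both groups. The 27 others gave 10 higher, 1 lower and 16 not called, with a median of 0.29. OAS2 and MX2, both among the 12 called higher, were tested only because of their siYAP libraries. Their direction was therefore built into the count of 12, and the top of the range, 2.38, is that of MX2.

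**Figure D1:**
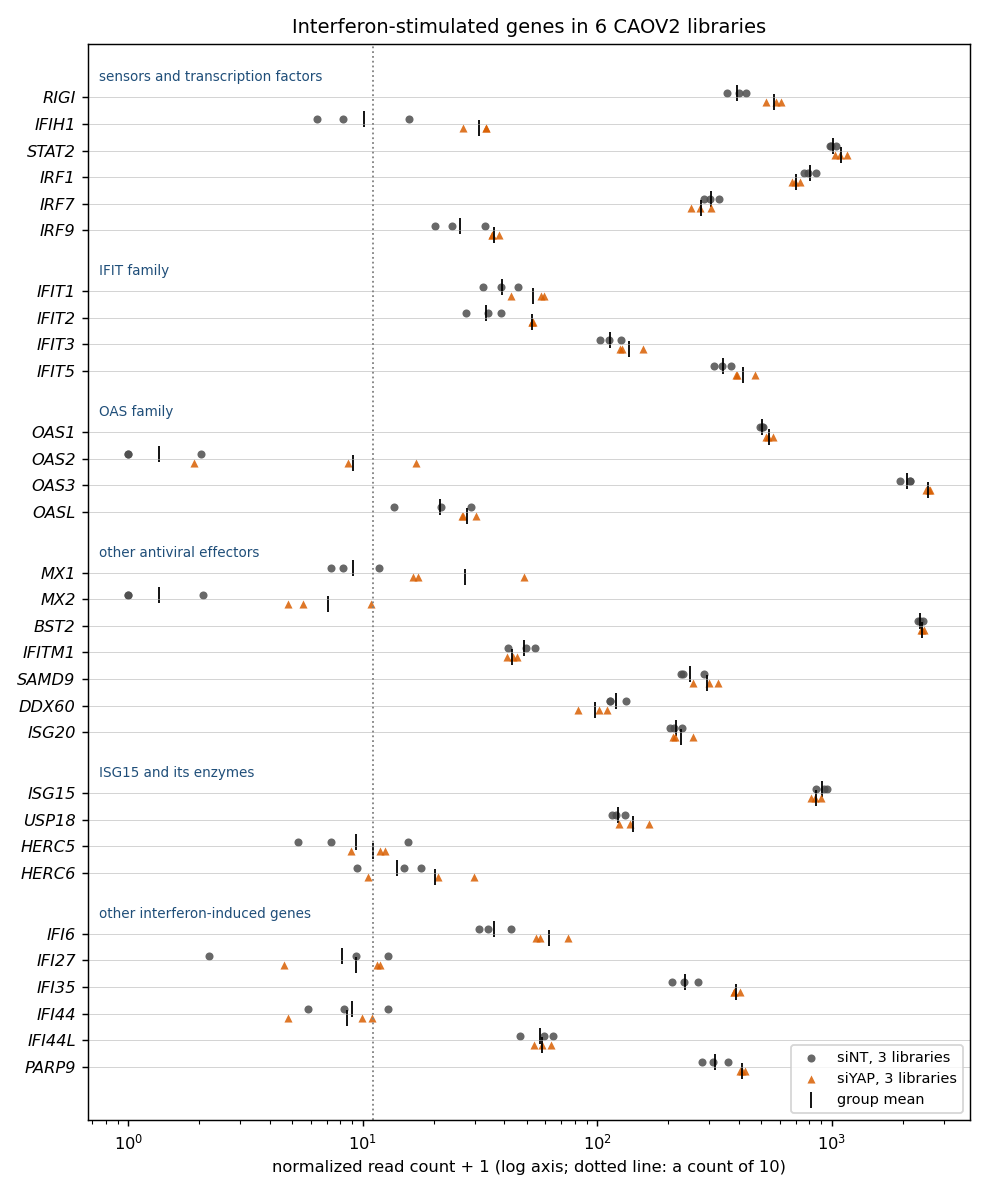
Normalized counts plus 1 (log axis) of the 31 measured interferon-stimulated genes in each library, grouped by role, with siNT as circles, siYAP as triangles, a vertical bar at each group mean and a dotted line at a count of 10. BST2 and OAS3 lie at or above 1949.8 in every library, while OAS2 and MX2 sit at 0 or 1 read in the siNT libraries.

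Levels spanned a wide range before any comparison. Per kilobase of annotated exon (GENCODE 29), the mean siNT level was 2127 normalized counts for BST2 and 966 for ISG15, above 96.5% and 90.7% of the genes with a length. OAS3 had 252 per kilobase and STAT2 164, at the 68.0 and 59.0 percentiles. At the other end, MX2 had 0.0273 per kilobase and OAS2 0.0557, at the 0.0836 and 0.113 percentiles. MX1 and IFIH1 were also low, with 0.937 and 1.78 per kilobase, at the 2.26 and 4.65 percentiles. Thus genes of the same pathway ranged from among the most abundant transcripts of these cells to near the floor.

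The ISRE consists of GAAA repeats spaced by a pair of bases, and it was looked for as GAAA, any 2 bases, then GAAA, on both strands, with overlapping matches allowed. The windows were 300 bases long, from 250 before to 50 after each transcript start in RefSeq (GRCh38.p14). Windows were found for 30 of the 36 genes. IRF7, USP18, MX2, OAS2, IFIT2 and OASL had no entry. The paired GAAA was present in 20 of the 30 genes (66.7%), against 1195 of all 27305 genes with a window (4.38%). These stretches are shown because they carry that element in genes that differ in level and in response, 5′ to 3′ on the gene's strand, with the repeats in capitals (TTTC is GAAA on the other strand):
ISG15 (chr1:1013369-1013408, plus strand): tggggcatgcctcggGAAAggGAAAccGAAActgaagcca
BST2 (chr19:17405736-17405775, minus strand): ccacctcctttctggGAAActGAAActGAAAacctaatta
IFIT1 (chr10:89392492-89392531, plus strand): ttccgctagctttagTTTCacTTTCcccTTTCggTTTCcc
IFIT5 (chr10:89414508-89414547, plus strand): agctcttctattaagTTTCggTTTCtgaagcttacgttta
OAS3 (chr12:112938316-112938355, plus strand): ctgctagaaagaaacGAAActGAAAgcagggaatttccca
IFIH1 (chr2:162318819-162318858, minus strand): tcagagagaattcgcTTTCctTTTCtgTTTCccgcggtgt
IFI6 (chr1:27672324-27672363, minus strand): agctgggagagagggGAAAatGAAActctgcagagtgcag
MX1 (chr21:41431839-41431878, plus strand): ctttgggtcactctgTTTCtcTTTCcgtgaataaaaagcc
PARP9 (chr3:122564317-122564356, minus strand): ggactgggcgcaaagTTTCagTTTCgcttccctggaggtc
SAMD9 (chr7:93118091-93118130, minus strand): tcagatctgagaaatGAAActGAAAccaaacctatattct

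Called and uncalled genes both held the pair. Among the measured genes with a window, it was present in 7 of the 9 called higher, in 11 of the 15 not called and not in the window of IRF1, the one called lower. The median log2 difference was 0.27 over the 18 measured genes with the pair and 0.46 over the 7 without it. Those 7 were RIGI, IFI35, STAT2, IRF1, IRF9, OAS1 and HERC6. Of the stretches shown, those of ISG15, BST2 and IFIH1 carry 3 evenly spaced repeats, and IFIH1 was called higher while ISG15 and BST2 were not called. The other interferon element, GAS, looked for as TTC, any 3 bases, then GAA on both strands, was present in 10 of the 30 genes (33.3%), against 9.38% of all genes. These matches describe the letters in the windows and not bound sites.

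Both cytoplasmic RNA sensors of the list rose. RIGI (ENSG00000107201, chromosome 9, 32455705 to 32526324 in GENCODE 29 on GRCh38), which recognises RNA ends with a triphosphate, had 430.4, 399 and 354 normalized counts in siNT and 520.2, 576 and 603 in siYAP. The siYAP libraries all lay above the siNT libraries. The log2 difference was 0.52 (SE 0.0814, limma adjusted p = 9.6e-06), with means of 394 ± 38.3 and 567 ± 42.3 (SD, n = 3 each).

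IFIH1 (ENSG00000115267, chromosome 2, 162267079 to 162318703), the sensor of long double-stranded RNA also known as MDA5, had 14.7, 5.34 and 7.25 normalized counts in siNT and 32.6, 32.6 and 25.7 in siYAP. It was low throughout, at 25 reads in all siNT libraries together and 96 in all siYAP libraries, and the groups did not overlap. The log2 difference was 1.73 (95% interval 1.06 to 2.41, limma adjusted p = 9.51e-05), and siYAP held 333% of the siNT mean.

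STAT2, IRF7 and IRF9 were not called with the deposited scaling and all libraries. STAT2, a subunit of the interferon-activated complex, had 1004 ± 31.6 normalized counts in siNT and 1088 ± 62.3 in siYAP, with overlapping groups and a log2 difference of 0.11 (95% interval -0.01 to 0.23, limma adjusted p = 0.1). IRF7, the factor that amplifies interferon transcription, had 304 ± 23.2 and 275 ± 26.4, a log2 difference of -0.15 (95% interval -0.34 to 0.05), also overlapping. IRF9, the DNA-binding partner of STAT2, had 23.0, 32.1 and 19.3 normalized counts in siNT and 34.4, 34.5 and 37.1 in siYAP. All siYAP libraries were above siNT for IRF9, but the difference of 0.52 was not called (limma adjusted p = 0.0567). IRF9 was called higher in 3 of 16 alternatives (equal totals, upper-quartile factors and without siNT replicate 2). Its adjusted p ranged from 0.0164 to 0.209 over the 16, which include edgeR and DESeq2. STAT2 was called higher in 2 (equal totals and without siYAP replicate 3), with adjusted p from 0.00544 to 0.417. IRF9 lies wholly within another annotated gene on the same strand, ENSG00000259529, named for that reason, which fell from 38.7 ± 3.98 to 27.1 ± 3.77 (limma adjusted p = 0.0489). How reads common to both were assigned is not given in the sources used here.

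IRF1 (ENSG00000125347, chromosome 5, 132481609 to 132490798), an interferon-γ target that itself activates interferon-stimulated genes, was the only gene called lower. It had 762, 791 and 858 normalized counts in siNT and 695, 730.4 and 672 in siYAP. Every siYAP library was below every siNT library, and the log2 difference was -0.20 (SE 0.064, limma adjusted p = 0.0107), with 87.0% of the siNT level left. The call was lost without siNT replicate 3 (log2 difference -0.15, limma adjusted p = 0.0808) and with equal totals (log2 difference -0.11, limma adjusted p = 0.137), over a range of adjusted p from 0.00263 to 0.137 across 16 alternatives. The opposite-strand gene IRF1-AS1, named because it overlaps IRF1, had means of 20.4 normalized counts in siNT and 20.6 in siYAP.

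**Figure D2:**
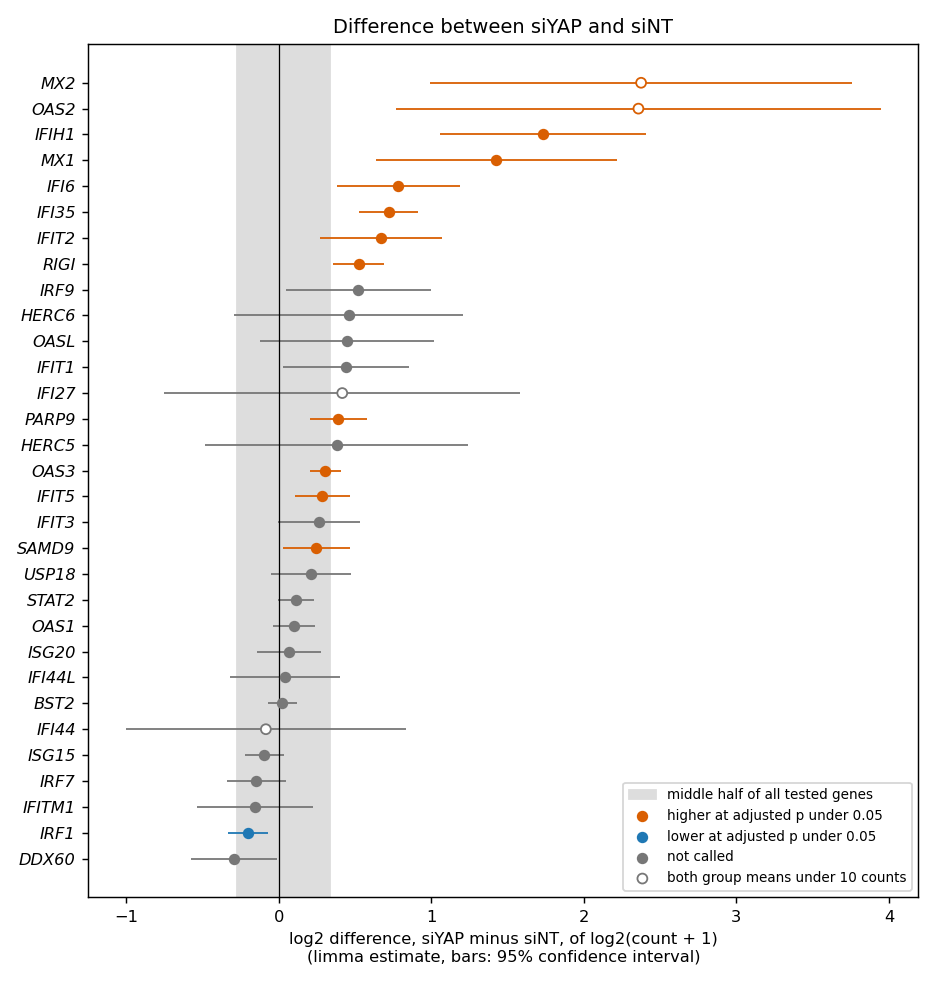
Log2 difference, siYAP minus siNT, of each measured gene with its 95% interval from limma, sorted by size, with called genes in orange (higher) or blue (lower), uncalled genes in grey, open symbols where both group means are under 10, and a grey band over the middle quartiles of all tested genes. MX2, OAS2, IFIH1 and MX1 have the largest differences. The widest intervals are those of OAS2, MX2 and IFI27, while RIGI, IFI35 and OAS3 have narrow ones.

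The IFIT proteins bind foreign RNA and hold back its translation. Their genes lie side by side on chromosome 10, between 89283694 (the start of IFIT2) and 89421001 (the end of IFIT5). Of the 4, 2 were called higher (50%, against 28.6% of all genes tested) and 2 were not called. IFIT5 (ENSG00000152778) had 369, 339 and 314 normalized counts in siNT and 392, 389 and 467 in siYAP. The siYAP libraries were all above siNT by a narrow gap, with a log2 difference of 0.29 (SE 0.0874, limma adjusted p = 0.0079). Without siNT replicate 3 (limma adjusted p = 0.0511) or siYAP replicate 3 (limma adjusted p = 0.0729) IFIT5 was not called, and its adjusted p ranged from 0.00113 to 0.0729 over 16 alternatives.

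IFIT2 (ENSG00000119922) had 37.7, 33.1 and 26.6 normalized counts in siNT and 51.7, 51.3 and 52.3 in siYAP. The groups were well apart for IFIT2, with a log2 difference of 0.67 (SE 0.193, limma adjusted p = 0.00512) and 159% of the siNT mean. IFIT1 had 38.0 ± 6.74 in siNT and 52.0 ± 8.86 in siYAP, a log2 difference of 0.44 (95% interval 0.03 to 0.85, limma adjusted p = 0.0615), and its groups overlapped. IFIT3 had 113 ± 11.9 and 136 ± 17.7, a log2 difference of 0.26 (limma adjusted p = 0.0862), and overlapped as well. Without siNT replicate 2, and with equal totals, both were called higher, and IFIT1 also without siYAP replicate 3. Over 16 alternatives the adjusted p ranged from 0.0250 to 0.216 for IFIT1 and from 0.0264 to 0.382 for IFIT3.

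IFIT1, IFIT2 and IFIT3 lie within the span of LIPA, a lysosomal lipase gene on the opposite strand, named because of that overlap. LIPA rose from 1989.9 ± 157 to 3105 ± 96.5 normalized counts (log2 difference 0.64, limma adjusted p = 1.12e-09). Per the labels' protocols the kit keeps strand, while for the counting step no strand setting is given in the sources used here. Any part of LIPA reads in the 3 IFIT values was not tested. IFIT5 does not overlap LIPA.

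The OAS proteins are activated by double-stranded RNA and make the messenger that switches on RNase L. OAS3 (ENSG00000111331, chromosome 12, 112938352 to 112973249), the most abundant of the family, had 1949.8, 2151 and 2144 normalized counts in siNT and 2505, 2626 and 2586 in siYAP. No siYAP library came near the siNT range, and OAS3 rose by 0.31 on the log2 scale (SE 0.0502, limma adjusted p = 1.84e-05) to 124% of siNT. Its neighbour OAS1 had 501 ± 6.75 and 538 ± 18.3, a log2 difference of 0.10 (95% interval -0.04 to 0.24, limma adjusted p = 0.204), with all siYAP libraries above siNT but no call.

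OAS2, the third gene of that cluster, was close to the floor. It had 1.05, 0 and 0 normalized counts in siNT and 0.906, 15.8 and 7.61 in siYAP, so siYAP replicate 1 stayed at the siNT level. The totals were 1 read in siNT and 25 reads in siYAP, a ratio of 21.4 per depth with an exact 95% counting interval of 3.51 to 881, which covers counting error only. OAS2 was called higher (limma adjusted p = 0.0117), but not without siYAP replicate 2 (limma adjusted p = 0.139) or siYAP replicate 3 (limma adjusted p = 0.0563), within a range of 0.000503 to 0.139 over 14 alternatives that tested it. It reached the filter value of 1 only in siNT replicate 1 and siYAP replicates 2 and 3. OAS2 was therefore tested only because of siYAP libraries, and a difference in that direction was built into its being tested. OASL, the OAS-like protein that has no synthetase activity, had 20.3 ± 7.62 and 26.8 ± 2.29 and was not called (log2 difference 0.45, limma adjusted p = 0.17).

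MX1 and MX2 are dynamin-like GTPases that trap viral nucleocapsids, and both were higher from very low levels. MX1 (ENSG00000157601, chromosome 21, 41420304 to 41459214) had 6.28, 10.7 and 7.25 normalized counts in siNT and 15.4, 47.4 and 16.2 in siYAP. The groups did not overlap, but siYAP replicate 2 stood well above the other siYAP libraries. The log2 difference was 1.43 (95% interval 0.64 to 2.21, limma adjusted p = 0.00282). Without siYAP replicate 2 it was 0.92 and not called (limma adjusted p = 0.0592, within 0.000765 to 0.0592 over 16 alternatives).

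MX2 had 0, 1.07 and 0 normalized counts in siNT and 4.53, 9.87 and 3.80 in siYAP, again with siYAP replicate 2 highest. That was 1 read against 19, a ratio of 16.3 with an exact 95% counting interval of 2.59 to 677, and a limma adjusted p of 0.00422. MX2 passed the filter on low values only through its siYAP libraries, so a difference in that direction was built into its being tested. siYAP replicate 2 was the highest siYAP library for 13 of the 31 genes (41.9%), against 26.2% of all listed genes.

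Neither of the effectors that act on membranes and virus particles was called. BST2, or tetherin, which holds budding virions at the cell surface, had 2380.2 ± 51.5 normalized counts in siNT and 2421 ± 41.5 in siYAP, a log2 difference of 0.02 (95% interval -0.07 to 0.12). This interval was the narrowest of the 31 genes. IFITM1, which blocks virus entry, had 47.5 ± 6.44 and 42.3 ± 2.25, a log2 difference of -0.15 (limma adjusted p = 0.499). It overlaps IFITM2 on the same strand, named for that reason, which fell from 373 ± 30.7 to 289 ± 17.4 (log2 difference -0.36, limma adjusted p = 0.00104).

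SAMD9, a restriction factor for poxviruses, had 284, 227 and 229.6 normalized counts in siNT and 256, 298 and 325 in siYAP. The groups overlapped, and the log2 difference of 0.25 was only just called (limma adjusted p = 0.0488). It was not called without siNT replicate 2 or 3 or siYAP replicate 2 or 3, over a range of adjusted p from 0.00353 to 0.223 in 16 alternatives. The helicase-like gene DDX60 had 131, 112 and 112 in siNT and 81.6, 109 and 101 in siYAP, all siYAP libraries lower, with a log2 difference of -0.29 and no call (limma adjusted p = 0.0723). The exonuclease gene ISG20 had 214 ± 13.1 and 225 ± 24.8 and was not called (limma adjusted p = 0.595).

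None of the 4 listed genes of the ISG15 system was called with the deposited scaling and all libraries. Over all genes tested, 28.6% were called higher and 28.1% lower. ISG15 itself (chromosome 1, 1001138 to 1014540) had 850.3, 951 and 926 normalized counts in siNT and 897, 842 and 815 in siYAP, a log2 difference of -0.09 (95% interval -0.22 to 0.03, limma adjusted p = 0.207) with overlapping groups. HERC5, the ligase that attaches ISG15, had 8.35 ± 5.42 and 10.1 ± 1.89, and its relative HERC6 had 13.0 ± 4.21 and 19.4 ± 9.57. USP18, the protease that removes ISG15 and also dampens the interferon receptor, had 121 ± 8.02 and 141 ± 21.6 (log2 difference 0.21, limma adjusted p = 0.156). USP18 was called higher with equal totals (limma adjusted p = 0.0488, within 0.0488 to 0.582 over 16 alternatives), and HERC6 without siYAP replicate 3 (log2 difference 0.88, limma adjusted p = 0.0379, within 0.0379 to 0.813). HERC5 and HERC6 rest on 22 to 61 reads per group, and the 95% intervals of their log2 differences reach from -0.48 to 1.24 and from -0.29 to 1.21.

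The enzymes that act before HERC5 are named here because of their own values. UBA7, the activating enzyme (E1) of ISG15 and among the 3 smallest p-values of the further interferon-stimulated genes, had 25.1, 16.0 and 23.0 normalized counts in siNT and 118, 109 and 122 in siYAP. It rose by 2.41 on the log2 scale (SE 0.188, limma adjusted p = 3.23e-10), to 543% of siNT, with no overlap between groups. UBE2L6, the conjugating enzyme (E2) of ISG15, named after its values were seen, had 25.1, 38.5 and 31.4 in siNT and 93.3, 87.8 and 85.6 in siYAP. It rose by 1.48 on the log2 scale (SE 0.18, limma adjusted p = 3.41e-07).

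**Figure D3:**
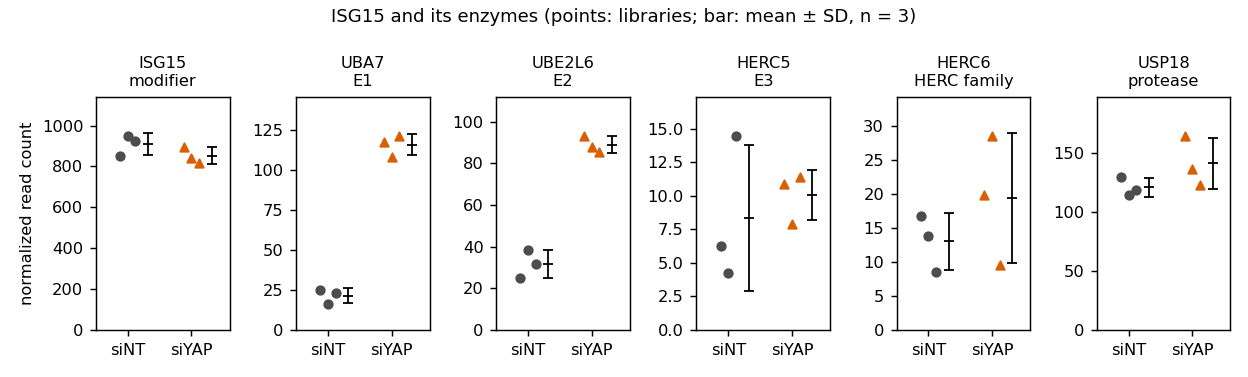
Normalized counts of ISG15, its activating enzyme UBA7 (E1), its conjugating enzyme UBE2L6 (E2), its ligase HERC5 (E3), HERC6 and its protease USP18, with points for libraries and bars for the mean ± SD (n = 3), each axis from 0. UBA7 and UBE2L6 have no overlap between siNT and siYAP, while the other 4 genes overlap.

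Of the 6 remaining interferon-induced genes, 3 rose (50%, against 28.6% of all genes tested): IFI35, IFI6 and PARP9. IFI35 (ENSG00000068079, chromosome 17, 43006725 to 43014456), a leucine zipper protein that associates with NMI, had 232, 268 and 208 normalized counts in siNT and 406, 380.0 and 379.5 in siYAP. This gene had the smallest adjusted p of the list, with a wide gap between groups and a log2 difference of 0.72 (SE 0.0932, limma adjusted p = 7.74e-07). Its mean in siYAP was 164% of siNT.

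IFI6 (ENSG00000126709, chromosome 1, 27666061 to 27672218), a small membrane protein that limits flavivirus replication, had 41.9, 33.1 and 30.2 normalized counts in siNT and 53.5, 74.0 and 56.1 in siYAP. All siYAP libraries were higher, and the log2 difference was 0.78 (SE 0.194, limma adjusted p = 0.0015). Other genes often read as markers of interferon exposure were low and not called: IFI27 at 7.11 ± 5.39 and 8.31 ± 4.07, IFI44 at 7.97 ± 3.51 and 7.55 ± 3.29, and IFI44L at 55.9 ± 9.13 and 57.3 ± 4.81. The 95% intervals of the log2 differences were -0.75 to 1.58 for IFI27 and -0.32 to 0.40 for IFI44L, so IFI44L was the more closely measured of the pair.

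PARP9 (ENSG00000138496, chromosome 3, 122527924 to 122564577), which forms a complex with the ubiquitin ligase DTX3L, had 360.2, 311 and 278 normalized counts in siNT and 404, 411 and 425 in siYAP. The groups did not overlap, and the log2 difference was 0.39 (SE 0.0887, limma adjusted p = 0.000665). DTX3L lies head to head with PARP9 on the opposite strand, shares 340 bases with it and is named because of that overlap. DTX3L rose from 818 ± 39.8 to 1053 ± 19.8 (log2 difference 0.37, limma adjusted p = 1.24e-05), so both partners were higher in siYAP.

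The genes upstream of the response were taken from further lists of the pathway. These lists were chosen with earlier results of these data known, so their shares beside those of all genes describe the lists and are not a test. Of 10 listed interferons, IFNE, the epithelial interferon of the reproductive tract, was measured, and it fell from 30.7 ± 4.74 to 16.9 ± 5.08 normalized counts (log2 difference -0.85, limma adjusted p = 0.00815). The other 9 were not analysed here. Among 10 genes for interferon receptors, JAK kinases and a STAT, 6 rose (60%), 2 fell (20%) and 2 were not called, with a median of 0.18, beside 28.6% higher and 28.1% lower over all genes tested. IFNAR2, a chain of the type I interferon receptor, had 615, 693 and 636 in siNT and 1633, 1730.2 and 1724 in siYAP, a rise of 1.39 on the log2 scale (SE 0.0586, limma adjusted p = 1.2e-14). IL10RB, a chain of the type III interferon receptor, rose from 152 ± 24.3 to 298 ± 24.7, and JAK1 from 3338 ± 87.3 to 5498 ± 204. Their log2 differences were 0.98 and 0.72 (limma adjusted p = 1.76e-07 and 8.38e-12).

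Of 15 measured genes for nucleic acid sensing, 8 rose (53.3%, against 28.6% of all genes tested), 3 fell (20%, against 28.1%) and 4 were not called, with a median of 0.20. STING1, the adaptor for cytoplasmic DNA, fell from 348 ± 18.9 to 191 ± 25.6 normalized counts (log2 difference -0.87, limma adjusted p = 1.53e-07). TRIM25, a ubiquitin ligase of the RIG-I pathway, fell from 6061 ± 168 to 3897 ± 70.9 (log2 difference -0.64, limma adjusted p = 3.05e-11). IRF5, a transcription factor downstream of Toll-like receptors, rose from 20.2 ± 2.96 to 72.5 ± 13.3 (log2 difference 1.79, limma adjusted p = 1.4e-07). The RNA sensors RIGI and IFIH1 thus rose in cells where TRIM25 and STING1 fell, but not all sensors rose. CGAS, a sensor of cytoplasmic DNA, fell from 450 ± 11.6 to 279 ± 32.4 (log2 difference -0.70, limma adjusted p = 5.05e-07). DHX58, a relative of RIGI, was not called (limma adjusted p = 0.211). CGAS and DHX58 were named after their values were seen.

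Of 12 inhibitors of interferon signalling, 2 rose (16.7%, against 28.6% of all genes tested), 4 fell (33.3%, against 28.1%) and 6 were not called, with a median of -0.01. SOCS3, which blocks JAK kinases, fell from 194 ± 17.3 to 153 ± 2.48 normalized counts (log2 difference -0.34, limma adjusted p = 0.00881), a call that was lost without siNT replicate 3 (limma adjusted p = 0.0515, within 0.00302 to 0.0515 over 16 alternatives). Its relative SOCS1, named after its values were seen, rose from 19.0 ± 2.94 to 33.6 ± 11.7 (log2 difference 0.74, limma adjusted p = 0.0215). The SOCS1 call was not examined under the alternatives. The phosphatase PTPN1 fell by 0.16 on the log2 scale (limma adjusted p = 0.00288), a call lost with equal totals (limma adjusted p = 0.138, within 0.00119 to 0.138 over 16 alternatives). IRF2, an antagonist of IRF1, rose by 0.27 (limma adjusted p = 0.00207).

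A further 36 interferon-stimulated genes were measured, from a list also chosen with earlier results of these data known. Of these, 21 rose (58.3%, against 28.6% of all genes tested), 6 fell (16.7%, against 28.1%) and 9 were not called, with a median of 0.31. TDRD7, an inhibitor of autophagy-dependent virus replication, rose from 372 ± 24.1 to 1031 ± 48.2 normalized counts (log2 difference 1.47, limma adjusted p = 6.13e-14). SAMHD1, which depletes the nucleotides needed for reverse transcription, rose from 2532 ± 31.5 to 4963 ± 81.0 (log2 difference 0.97, limma adjusted p = 3.14e-14). Relatives of the listed effectors went separate ways. SAMD9L, the neighbour of SAMD9, rose from 55.8 ± 9.53 to 116 ± 5.62 (limma adjusted p = 3.52e-06), and DDX60L, the neighbour of DDX60, fell from 234 ± 18.7 to 179 ± 10.8 (limma adjusted p = 0.00234). These last genes were named after their values were seen.

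**Figure D4:**
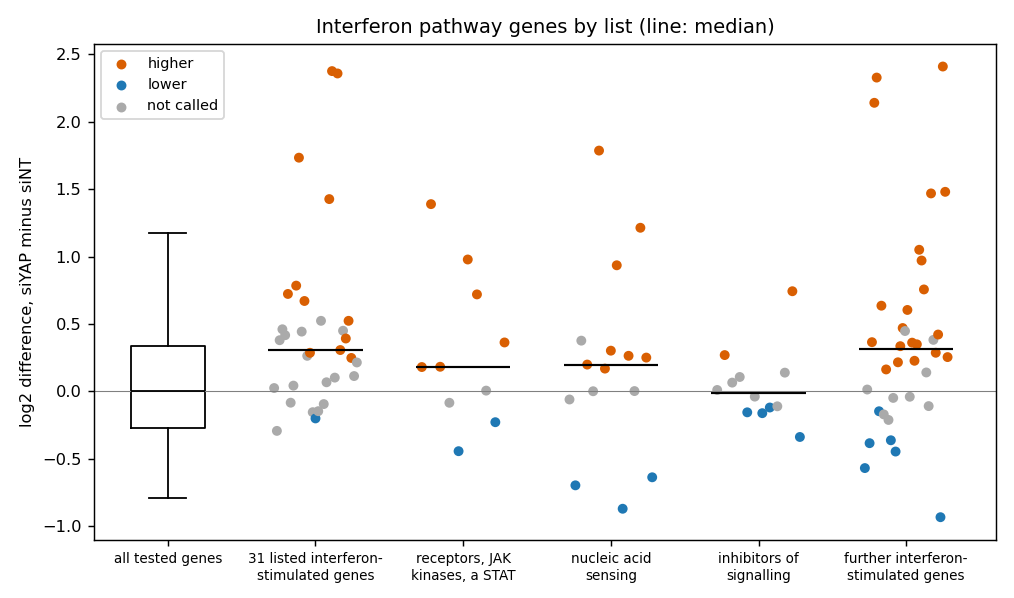
Log2 difference, siYAP minus siNT, for all tested genes (box with whiskers at the 5 and 95 percentiles) and for the interferon-stimulated genes, receptors with JAK kinases and a STAT, nucleic acid sensing, inhibitors and further interferon-stimulated genes (points, with a line at each median). The medians are 0.31, 0.18, 0.20, -0.01 and 0.31, beside 0.0036 for all tested genes, and every list holds genes on either side of 0.

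The defining markers of other cells were also read. Of 12 immune cell markers 4 were measured, with CD14 called higher (137% of siNT) and CD79A (37.2%), CD68 (63.9%) and LYZ (30.4%) called lower, and their sum was 197.9 to 213.8 normalized counts in siNT and 143.1 to 160.4 in siYAP. Of 7 fibroblast markers 6 were measured, with a sum of 5609.5 to 6399 in siNT and 14299 to 14804 in siYAP that was mostly LUM (3797 and 9819) and COL3A1 (661 and 3060). LUM, COL3A1, PDGFRA and PDGFRB were called higher, and COL1A1 (86.8%) and COL1A2 (9.89%) lower. Of 6 endothelial markers ESAM was measured and called lower (73.1%). Of 10 epithelial and ovarian markers 9 were measured, with a sum of 97262 to 105670 in siNT and 73107 to 79482 in siYAP. EPCAM (167%) and CDH1 (191%) were called higher, KRT7 (51.1%), KRT18 (62.2%), KRT19 (81.8%) and MECOM (52.3%) lower, and KRT8, PAX8 and MUC16 were not called, the last pair with means under 30. The part of these shifts in the differences of the interferon-stimulated genes was not tested.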

How the data were processed

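Poly(A) RNA was sequenced in 3 siNT and 3 siYAP libraries of CAOV2 cells with a stranded kit, per the labels' protocols. FastQC, HISAT2, HTSeq and DESeq2 and the builds hg19 and mm9 are named in the submitters' processing notes, with no roles. The deposited signal values were judged, from the values themselves, to be read counts per gene divided by a size factor per library: 100% of values were whole reads within 0.01 of a read once divided by the value of 1 read. The rule that chose the 17211 listed genes is not given in the sources used here.

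Values were tested as log2(value + 1) with limma 3.58.1 (trend, robust) in R 4.3.3, with group as the only term, for the 17200 genes that reached 1 in 3 or more libraries. P-values were adjusted by Benjamini-Hochberg over all of them. Log2 differences understate the change of low genes. As alternatives, edgeR 4.0.16 and DESeq2 1.42.0 were run on the recovered reads, and limma was run with other scalings, filters and a pseudocount of 0.1, with no trend, with a replicate block and with each library left out. Symbols were found for 16662 identifiers, and lengths, coordinates and overlaps came from GENCODE 29 (GRCh38) by identifier for 16743. Promoter windows came from RefSeq. The limma script was checked on simulated data with far fewer changed genes than were called here, so that check covers the code and not these calls.

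The genes and pathway lists were chosen with earlier results of these data known. All measured genes of the set are named, with the 3 called genes of smallest p per pathway list, and others are marked where named. Within a group, Pearson correlations of log2 values were 0.992 to 0.994, and no pair of libraries was alike within sampling noise (chi-square over its degrees of freedom from 2.75 to 7.50), so none was treated as a duplicate.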

Additional observations from a re-analysis of the deposited data

How the results depend on the processing

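Over 16 alternatives, RIGI, IFIH1, IFIT2, OAS3, IFI6, IFI35 and PARP9 were called higher in each. Counts are from limma unless another tool is named. Equal totals called 19 genes of the set higher, against 12, and 0 lower, against 1. Leaving out 1 library gave 0 (siNT replicate 3) to 2 (siYAP replicate 2, adding DDX60) called lower. In either direction, edgeR with its own filter called 11 of 28 tested, beside 9571 of all genes, and DESeq2 12 of 31, beside 8778. DESeq2 lost SAMD9, which was also lost with a pseudocount of 0.1. OASL (without siNT replicate 2) and OAS1 and BST2 (equal totals) gained a call of higher. Limma without trend called 9, beside 8536 of all genes, losing IFIT5, MX1, OAS2 and SAMD9. The cause of these changes was not tested. Uncalled genes whose sign turned when 1 library was left out ranged from -0.021 to 0.12 for ISG20, -0.35 to 0.91 for IFI27, -0.36 to 0.29 for IFI44 and -0.090 to 0.14 for IFI44L. The sign turned without siYAP replicate 3 for ISG20 (-0.021), siNT replicate 3 for IFI27 (-0.35), siNT replicate 2 (0.21) or siYAP replicate 3 (0.29) for IFI44, and siNT replicate 2 (-0.090) or siYAP replicate 2 (-0.017) for IFI44L. Replicate numbers did not pair the libraries (correlations of deviations -0.0962, -0.00873 and 0.00831). With the replicate block, 12 genes of the set and 9141 of all genes were called, against 13 and 9767, and SAMD9 was lost (limma adjusted p = 0.0736). At the depth of OAS2, MX2, IFI27 and IFI44, a few reads set the value.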
